A study of Mus musculus with 8 samples.

Results

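Peaks in gene deserts were taken from an ATAC-seq peak table of mouse embryonic stem cells. A peak was counted as a desert peak when its centre lay on chromosomes 1 to 19, outside the span of every protein-coding gene and more than 300 kb from both ends of every protein-coding gene in GRCm38. This rule used positions only and no measured value. It gave 4274 desert peaks of 131317 peaks on these chromosomes and 134407 in the whole table. They lay in 425 of the 512 stretches that met the rule, each called here by the protein-coding genes on either side of it. A desert with a peak held a median of 7 peaks and at most 56.

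ATAC-seq marks open chromatin by the insertions of the Tn5 transposase. The cells were wild-type E14, an established line of mouse embryonic stem cells, on gelatin in medium with serum and LIF. There were 4 control samples, and 4 paused samples in which 200 nM INK128, which inhibits the mTOR kinase, had been added for 24 h. Both groups shared genotype, line and medium, and nothing in the labels says that the replicates came from separate cultures, so that p-values measure the spread between these samples, which may be technical. The labels name a treatment but no measure of pausing, and 1 cell line was used.

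Gene deserts are long stretches of a chromosome without protein-coding genes. Many flank genes of development, and enhancers, the DNA elements that raise transcription from a distance, are known to lie in some of them. Others hold few known elements and tend to be compact and late replicating. A peak so far from any gene cannot be given a target by position, and the flanking genes below serve as place names.

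A value below is the deposited one, the reads of a peak scaled by a factor for each sample. A peak is called higher or lower when limma-trend, fitted to log2(value + 1) of all peaks whose mean value reached 10, gave a Benjamini-Hochberg adjusted p under 0.05. The recovered reads in peaks were fewest in control replicate 3, at 4434037, and most in control replicate 1, at 21161767, and the median tested desert peak held between 16 and 75 reads per sample. Peaks lay within 2 kb of an end of 7 of 8 stem cell marker genes, Pou5f1 among them, with none at Dppa5a. They also lay there at 14 of 16 marker genes of endoderm, mesoderm, neural, trophoblast and fibroblast cells, so that peaks at gene ends do not set these cell types apart. In bulk chromatin a site open in more cells and a site more open in each cell cannot be told apart.

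Desert peaks can be shown by sequence where they overlap the promoter of a non-coding gene, since promoter sequences are the ones at hand. Of the desert peaks, 45 overlapped a promoter window of a long non-coding RNA or other gene without a protein, a window being the 250 bases before and 50 bases after a start site in the RefSeq sequences of GRCm38.p6. Of the 43 tested among them, 7 were higher and 3 lower in paused cells, where 11% of all tested peaks were higher and 2.91% lower. In 5 windows a called peak covers most of the window, and the 4 below are these without a second, overlapping window of Gm31415 that holds the same peak. Capitals mark the bases inside the peak, and each window is written 5′ to 3′ on the strand of its gene.
1190028D05Rik: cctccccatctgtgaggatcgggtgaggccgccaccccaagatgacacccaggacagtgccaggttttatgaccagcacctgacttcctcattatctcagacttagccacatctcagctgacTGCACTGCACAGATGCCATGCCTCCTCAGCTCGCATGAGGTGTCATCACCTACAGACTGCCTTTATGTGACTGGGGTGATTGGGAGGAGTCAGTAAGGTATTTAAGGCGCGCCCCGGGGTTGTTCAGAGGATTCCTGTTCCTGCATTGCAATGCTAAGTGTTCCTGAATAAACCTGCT
Gm31415: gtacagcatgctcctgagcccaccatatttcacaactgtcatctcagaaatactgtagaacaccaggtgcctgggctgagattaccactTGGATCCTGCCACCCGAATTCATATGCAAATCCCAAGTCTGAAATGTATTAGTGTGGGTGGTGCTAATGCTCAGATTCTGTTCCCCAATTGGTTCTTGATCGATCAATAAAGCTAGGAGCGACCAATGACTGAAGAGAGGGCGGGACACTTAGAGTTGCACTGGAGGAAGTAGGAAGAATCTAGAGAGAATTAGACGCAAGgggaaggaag
Gm35888: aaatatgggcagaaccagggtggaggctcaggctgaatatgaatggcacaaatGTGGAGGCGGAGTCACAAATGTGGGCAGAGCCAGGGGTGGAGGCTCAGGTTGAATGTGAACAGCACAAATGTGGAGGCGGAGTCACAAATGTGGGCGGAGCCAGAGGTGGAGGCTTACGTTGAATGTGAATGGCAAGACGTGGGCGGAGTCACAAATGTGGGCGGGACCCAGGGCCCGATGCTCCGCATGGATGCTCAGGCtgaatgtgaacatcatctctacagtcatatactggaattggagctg
Gm35079: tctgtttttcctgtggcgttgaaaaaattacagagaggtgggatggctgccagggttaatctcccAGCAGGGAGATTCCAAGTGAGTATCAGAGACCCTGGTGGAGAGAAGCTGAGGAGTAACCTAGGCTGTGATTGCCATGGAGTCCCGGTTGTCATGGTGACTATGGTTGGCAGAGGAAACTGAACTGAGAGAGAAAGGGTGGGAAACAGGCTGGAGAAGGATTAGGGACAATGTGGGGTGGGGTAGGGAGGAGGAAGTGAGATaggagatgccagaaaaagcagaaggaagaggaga

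The 1190028D05Rik window (chr8:52356361-52356660, plus strand) lies between Tenm3, which encodes a teneurin of neuronal connections, and Aga, which encodes a lysosomal enzyme. Its peak had values of 126, 139, 142 and 109 in the control samples and 182, 191, 242 and 214 in the paused samples. Every paused value lay above every control value, and the peak rose (log2 change 0.68 with SE 0.12, adjusted p = 0.0002 in limma-trend). The first window of Gm31415 (chr3:49062087-49062386, plus strand), between Pabpc4l and the protocadherin gene Pcdh18, holds its whole peak. That peak had values of 44.9, 56.1, 35.6 and 48.5 in the control samples and 70.4, 59.9, 72.9 and 84.3 in the paused samples, with no overlap (log2 change 0.63 with SE 0.17, adjusted p = 0.00837 in limma-trend). Gm35888 (chr2:178850373-178850672, plus strand), between Cdh26 and 4930591A17Rik, also holds a whole peak. Its values were 49.8, 45.4, 39.0 and 33.8 in the control samples and 63.5, 69.4, 52.8 and 62.1 in the paused samples, again without overlap (log2 change 0.56 with SE 0.17, adjusted p = 0.0229 in limma-trend).

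Gm35079 (chr14:72042887-72043186, minus strand) is the window shown whose peak fell, in the desert beside Gfra2, which encodes a receptor subunit for neurturin. Its peak was weak, with values of 19.4, 19.1, 25.4 and 10.3 in the control samples and 8.07, 7.89, 12.4 and 3.51 in the paused samples. The highest paused value lay above the lowest control value, so that the groups overlapped (log2 change -1.16 with SE 0.36, adjusted p = 0.0275 in limma-trend). A search of both strands for 8 short motifs found CCAAT and GGGCGG, the CCAAT and GC boxes of many promoters, in the windows of Gm31415 and Gm35888, and CCAAT in that of 1190028D05Rik. The Gm31415 window also holds ATGCAAAT, the octamer that POU proteins such as Oct4 bind. None of the 8 was found in the Gm35079 window, which says nothing of factors that bind other letters. Of the 32851 windows of the same length in the RefSeq table, 37.4% hold CCAAT, 35.7% GGGCGG and 1.74% ATGCAAAT. The other motifs searched were TATAAA (in 13.6% of windows), TCAAGGTCA (0.423%), TGANTCA (7.81%), CACGTG (7.15%) and ACAAAG (18.7%). A match is a run of letters and not evidence of binding.

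Desert peaks more often rose than fell in paused cells. Of the 3688 desert peaks strong enough to be tested, 619 (16.8%) were called higher and 78 (2.11%) lower, while 586 members fell below the minimum value and were not tested. Among all tested peaks of the table, 11% were called higher and 2.91% lower, 13.9% in either direction. The median log2 change was 0.19 in desert peaks and 0.10 in all peaks. The 2 groups of samples did not overlap, with every paused value higher, at 666 desert peaks (18.1%, against 13% of all peaks), and with every paused value lower at 106 (2.87%, against 4.36%). A change of at least 2-fold was called for 112 desert peaks that rose (3.04%, against 1.43% of all tested peaks) and for 22 that fell (0.597%, against 0.923%). These shares were much the same in other peaks between genes at 100 to 300 kb from a gene. There, 3.38% rose and 0.603% fell by at least 2-fold. Every paused value was higher at 17.7% of them and lower at 3.25%.

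The numbers of rises and falls depended on how samples were scaled, while the median of desert peaks stayed above that of all peaks. With TMM, the median change of all peaks moved from 0.10 to -0.01, and with scaling to the total in peaks to -0.05. The desert median lay above the median of all peaks by 0.09 as deposited, with TMM and with the total, and by 0.13 after loess correction on peak strength. Of the called desert peaks, 88.8% were higher as deposited, 77.1% with TMM, 67.6% with the total, 78.6% after loess and 78.8% in edgeR with TMM.

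In each of these scalings a larger share of desert peaks than of all peaks was called higher, and a smaller share lower. With TMM 10.1% of desert peaks were higher and 3.01% lower, against 5.77% and 4.28% of all peaks. With the total the shares were 8.03% and 3.85% against 4.51% and 5.36%, and after loess 9.84% and 2.68% against 5.1% and 3.5%. On the recovered reads, edgeR gave 13.4% and 3.61% against 7.13% and 5.54% with TMM, and 20.6% and 2.33% against 12.9% and 3.63% with the deposited factors. DESeq2 gave 5.48% and 1.00% against 3.06% and 1.49%. In the authors' deposited table, 564 of the 4274 desert peaks (13.2%) have an FDR under 0.05 and are higher, and 44 (1.03%) are lower, against 9.19% and 1.8% of all peaks. The number of falls also changed when 1 sample was left out: it was 50 without control replicate 3, 38 without control replicate 4, 51 without paused replicate 2 and 50 without paused replicate 4. With another sample left out it was higher than in the full fit, and the range over all samples is given at the end. Each such fit has fewer samples and so less power, which is not separated here from an effect of a library.

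Desert peaks were weaker than other peaks, and change depended on strength, so that the comparison was repeated within 10 equal classes of mean strength, from 1 for the weakest. The median value of desert peaks was 25.1, against 32.7 for other peaks on chromosomes 1 to 19. They were also more isolated, with a median distance to the next peak of 19.6 kb against 3.94 kb. In each of the 10 classes, the median change was higher in desert peaks than in other peaks. In the weakest class the medians were 0.07 in deserts and -0.21 elsewhere, and in class 8 they were 0.34 and 0.15.

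Counted in percentage points, the gap in calls between desert and other peaks was widest among strong peaks, while the gap in medians was widest in the weakest class. In class 9, 96 of 228 desert peaks (42.1%) were called higher, against 21.0% of other peaks. In the strongest class 29 of 81 desert peaks (35.8%) were called higher, against 18.0% of other peaks. The share called lower was smaller in deserts than elsewhere in 8 of the 10 classes. The other peaks include those outside genes within 1 kb of a gene end, with a median value of 152, of which 10.6% were called higher. Peaks between genes at 100 to 300 kb from a gene, of which 16.4% were called higher, are not split by class here. These classes therefore do not set deserts apart from them.

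**Figure D1:**
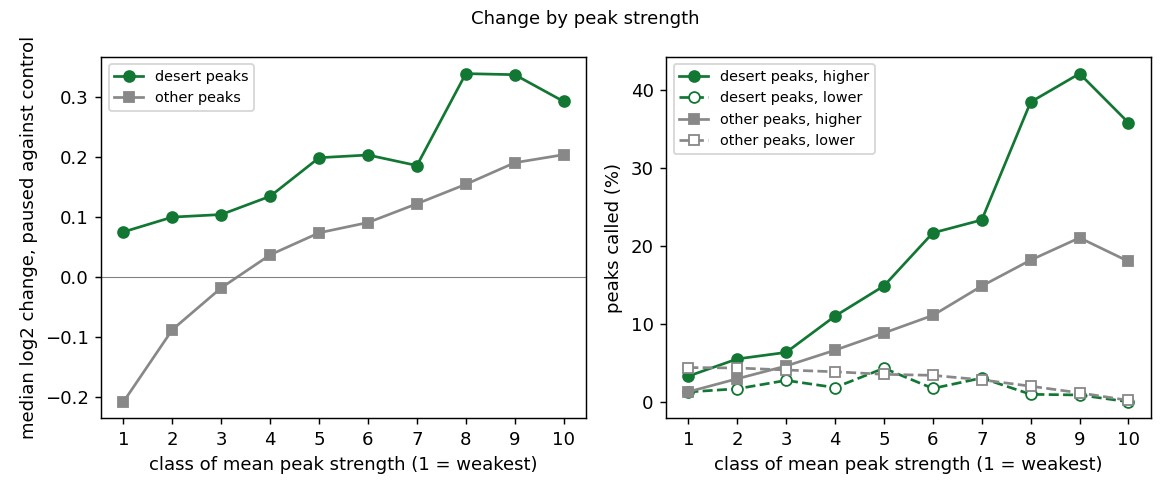
Desert peaks (green circles) and other peaks on chromosomes 1 to 19 (grey squares) by class of mean strength, from 1 for the weakest. The left panel gives the median log2 change of paused against control and the right panel the percentage of tested peaks called higher (solid lines) or lower (dashed lines); the green median lies above the grey one in all 10 classes.

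Per sample, the share of all values that fell in desert peaks was 1.84%, 1.82%, 1.90% and 1.98% in the control samples and 1.97%, 2.04%, 1.98% and 1.96% in the paused samples. Control replicate 4 lay within the range of the paused samples, so that the groups overlapped. The means were 1.88% ± 0.0732 (SD, n = 4) and 1.99% ± 0.0371 (SD, n = 4), which did not differ past the threshold (difference 0.107 percentage points, exact two-sided permutation p = 0.0857, adjusted p = 0.0857 over 2 comparisons). Without control replicate 4, the only control inside the paused range, the groups no longer overlapped and the difference was 0.139 percentage points. The exact permutation p of 0.0286 was then the smallest that 35 arrangements can give. This was the largest difference with 1 sample left out.

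At equal strength, the mean log2 value of desert peaks less that of other peaks was -0.15, -0.11, -0.05 and -0.01 in the control samples and 0.04, 0.06, 0.09 and 0.03 in the paused samples. No control sample reached the lowest paused sample. The classes of strength were cut on the mean of all 8 samples, which holds the average of these differences near 0. Their signs alone therefore show nothing. The group means of -0.08 ± 0.06 and 0.06 ± 0.03 (SD, n = 4) differed by 0.14 with an exact two-sided permutation p of 0.0286, the smallest that 4 against 4 can give. Adjusted over the 2 comparisons it was 0.0571, which does not pass 0.05. With any 1 paused sample left out the exact permutation p was 0.0571, at differences between 0.12 and 0.15.

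The difference was not detectable against other peaks far from genes. Set against peaks that lay between genes at 100 to 300 kb from a gene, desert peaks at equal strength differed by -0.04, -0.02, 0.01 and 0.02 in the control samples and by -0.00388, 0.000832, 0.02 and -0.00306 in the paused samples. The groups overlapped, and their means differed by 0.01 (exact permutation p = 0.429), a comparison added after the data were seen.

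**Figure D2:**
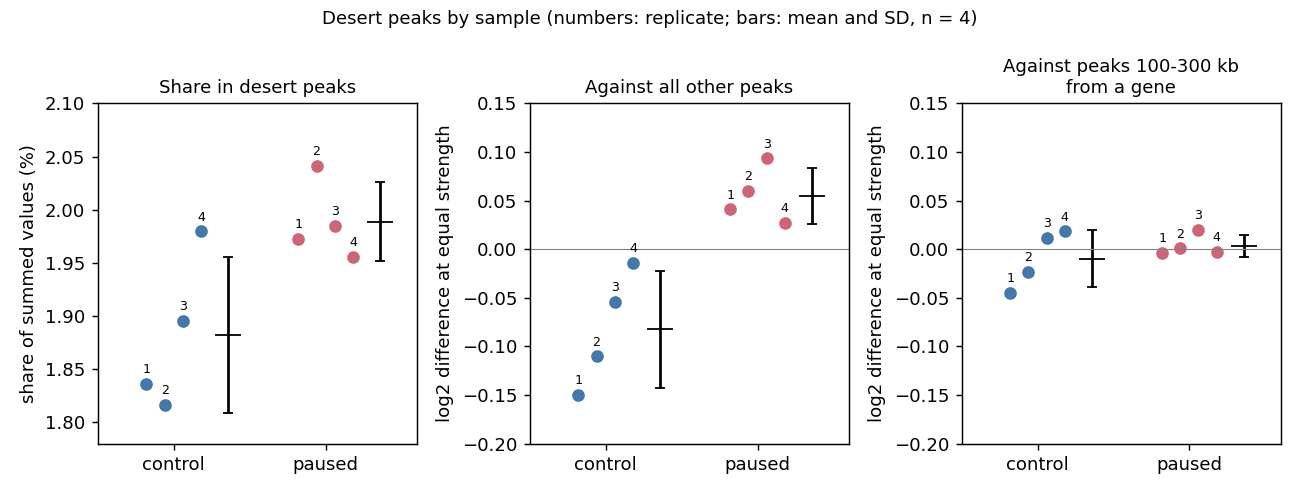
Each point is 1 sample, numbered by replicate (blue control, red paused), and bars show mean and SD of 4. The left panel gives the percentage of summed values in desert peaks. The middle panel gives the log2 difference of desert from all other peaks at equal strength, where each paused sample lies above each control sample. The right panel gives the same against peaks 100 to 300 kb from a gene, where the groups overlap.

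The share of rises grew with distance from the nearest gene and then levelled off before the distance that defines a desert. Between genes, 9.72% of tested peaks 1 to 10 kb from a gene were called higher, with a median log2 change of 0.04. The share was 12.9% at 10 to 50 kb, 14.5% at 50 to 100 kb, 16.4% at 100 to 200 kb and 16.6% at 200 to 300 kb. Within deserts it was 17.04% at 300 to 500 kb, 17.1% at 500 kb to 1 Mb and 15.4% for the 692 peaks over 1 Mb from any gene. Just outside the threshold, at 290 to 300 kb, 29 of 156 tested peaks were called higher and 3 lower, with a median change of 0.18. Just inside it, at 300 to 310 kb, 16 of 137 were higher and 4 lower, with a median change of 0.19.

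By chromosome, the share of desert peaks called higher ran from 10.3% on chromosome 19, with 39 tested desert peaks, to 23.3% on chromosome 4, with 258. It was 16.8% over all tested desert peaks, and 11% of all tested peaks of the table were called higher. The share over all peaks of each chromosome is not given here, so that these differences cannot be ascribed to deserts. The median change of desert peaks was lowest on chromosome 19, at 0.03, and highest on chromosome 4, at 0.32.

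Among single desert peaks with no overlap between the groups and a mean value not below the desert median, the largest rise lay 675.9 kb from Trib2, which encodes a pseudokinase, on the side towards Lratd1. This peak (chr12:15115695-15115895) had values of 28.4, 28.7, 18.6 and 30.9 in the control samples and 79.6, 88.3, 76.0 and 58.6 in the paused samples. The groups stood far apart (log2 change 1.48 with SE 0.19, adjusted p = 1.24e-06 in limma-trend). The next peak, 0.823 kb away, was also called higher. The second largest rise (chr10:11832797-11832997) lay between Epm2a, the gene of the glycogen phosphatase laforin, and Utrn, that of utrophin. Its values were 18.0, 10.8, 16.9 and 19.1 in the control samples and 39.2, 44.2, 38.8 and 56.2 in the paused samples (log2 change 1.42 with SE 0.23, adjusted p = 4.81e-05 in limma-trend).

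The strongest of the 8 named rises lay between Rap2b, a gene of a Ras-like GTPase, and Arhgef26, that of a guanine nucleotide exchange factor. This peak (chr3:61796134-61796334) had values of 38.7, 45.4, 37.2 and 42.6 in the control samples and 88.8, 94.6, 113 and 109 in the paused samples (log2 change 1.28 with SE 0.15, adjusted p = 5.65e-07 in limma-trend). A peak between Cd83, a marker gene of mature dendritic cells, and Jarid2, which encodes a component of Polycomb repressive complex 2, went from a mean of 33.2 ± 7.90 to 81.5 ± 13.6 (mean and SD, n = 4; log2 change 1.28). The other named rises lay in the deserts Bambi-Lyzl1 (log2 change 1.38), Atxn7l3b-Trhde (1.38), Slitrk5-Gpc5 (1.34) and Pcdh20-Pcdh9 (1.31). Each of these 8 stayed called in each alternative tried.

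The largest fall lay between Vrk2, which encodes a protein kinase, and Ccdc85a. This peak (chr11:27404079-27404279) had values of 26.3, 43.0, 54.2 and 47.0 in the control samples and 18.5, 11.04, 17.1 and 23.4 in the paused samples (log2 change -1.24 with SE 0.24, adjusted p = 0.000598 in limma-trend). Control replicate 1 was the lowest control and lay just above the highest paused value. The peak of the second largest fall (chr15:50317308-50317508) lay 337.3 kb from Trps1, the gene of a repressor with a GATA-type zinc finger, towards Csmd3. Its values were 39.1, 41.8, 42.3 and 39.7 in the control samples and 23.1, 15.8, 18.6 and 12.9 in the paused samples, with the control samples close together (log2 change -1.19 with SE 0.22, adjusted p = 0.000317 in limma-trend).

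A further fall lay 407.9 kb from Mzt1 and 456.9 kb from Dach1, which encodes a transcriptional cofactor of eye and limb development. Its peak had values of 47.7, 40.6, 40.6 and 60.2 in the control samples and 20.8, 14.2, 32.6 and 24.6 in the paused samples (log2 change -1.05 with SE 0.22, adjusted p = 0.00125 in limma-trend). That its groups do not overlap was required by the rule that named it, as for each named rise and fall. The other named falls lay in the deserts Pcmtd1-Sntg1 (log2 change -0.97), Bcl11a-Fancl (-0.95), Gbe1-Robo1 (-0.88), Lrfn5-Fscb (-0.81) and Adam6a-Zfp386 (-0.81). The calls in Bcl11a-Fancl and Lrfn5-Fscb rested on single samples: without paused replicate 2 the adjusted p was 0.0665 and 0.0533 in limma-trend, and without control replicate 3 that of Bcl11a-Fancl was 0.0523.

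**Figure D3:**
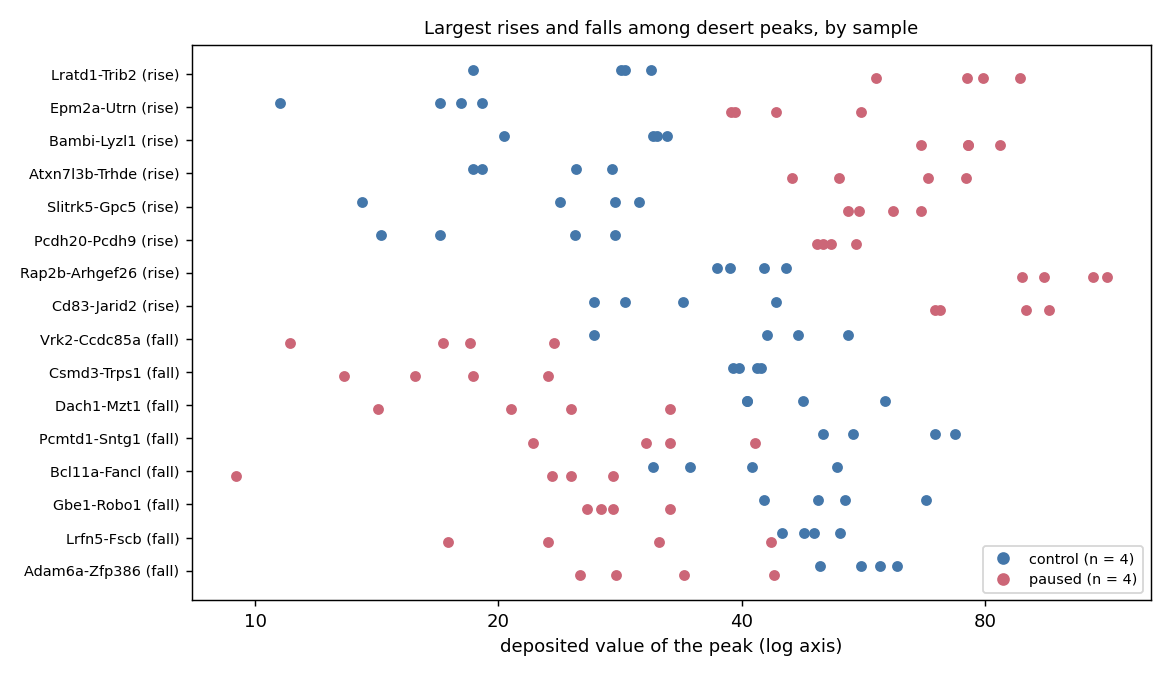
Deposited values (log axis) of the 8 largest rises and 8 largest falls among desert peaks, each line 1 peak named by the genes beside its desert. Blue points are the 4 control samples and red points the 4 paused samples; the rule for naming them required that the colours do not overlap.

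The 3 strongest desert peaks of all were not called. The first, between F2rl3 and Isx (chr8:73353552-73353752), had values of 297, 349, 373 and 345 in the control samples and 353, 328, 465 and 431 in the paused samples. Paused replicate 2 lay below 3 of the controls (log2 change 0.20 with SE 0.11, adjusted p = 0.23 in limma-trend), and after loess correction the change was -0.01. The strongest peaks of Cyp7b1-Armc1 and Lrfn5-Fscb went from 247 to 294 and from 238 to 279 in the group means, with limma-trend adjusted p of 0.125 and 0.16.

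Summed over its peaks, a desert is measured with more reads than any of its single peaks. The values of each desert were summed per sample and fitted together with those of all other stretches of chromosomes 1 to 19, the gene spans and the stretches between genes within 300 kb of one. Of 419 deserts tested, 192 (45.8%) were higher in paused cells and 10 (2.39%) lower. Among all 26207 stretches, 25.4% were higher and 2.08% lower, 27.5% in either direction. Gene spans were higher in 23.0% of cases and stretches near genes in 27.2%. Stretches with more peaks were called more often in every class. Among those with 10 to 19 peaks, 64.9% of deserts and 41.9% of other stretches were called higher, and among those with 20 or more, 69.4% and 57.5%.

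The number of deserts called depended more on scaling than that of peaks did. With TMM, 68 deserts (16.2%) were higher and 18 lower, against 5.51% and 4.98% of all stretches. With the total 61 were higher and 23 lower (4.97% and 5.59% of all stretches), and after loess 60 and 16 (5.53% and 4.66%). In edgeR the numbers were 79 and 19 with TMM (5.96% and 5.83%) and 200 and 11 with the deposited factors (27.5% and 2.3%). DESeq2 called 53 higher (12.6%) and 12 lower, against 3.55% and 2.56%. When log2 values were averaged over the peaks of a stretch instead of summed, 53 deserts were higher and 3 lower, against 7.59% and 1.91%. The largest rises described below kept their direction under each scaling. At the level of single peaks, 253 deserts held a peak that rose and 69 a peak that fell, and 45 held both. Such counts grow with the number of peaks, whose median was 7 in tested deserts and 3 over all stretches. The same count over all stretches is not given here, so that these numbers do not set deserts apart.

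Among deserts of at least 3 peaks the largest rise was between Pard3, a gene of cell polarity, and Nrp1, which encodes neuropilin, a receptor for semaphorins and VEGF. Its summed value (chr8:127912287-128058590) was 110.3, 106, 110.1 and 116 in the control samples and 194, 232, 231 and 226 in the paused samples. Every paused sample lay well above every control sample, and the mean went from 111 ± 4.04 to 221 ± 18.1 (mean and SD, n = 4; log2 change 0.99 with SE 0.10, adjusted p = 4.59e-07 in limma-trend). Its 3 peaks, 305.3, 382.9 and 430.8 kb from Pard3, rose by 1.20, 0.65 and 1.05 on the log2 scale, and each was called.

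The desert Rap2b-Arhgef26 followed, with a summed value of 151, 160.0, 166 and 173 in the control samples and 266, 341, 289 and 316 in the paused samples (log2 change 0.89 with SE 0.10, adjusted p = 6.44e-07 in limma-trend). Of its 5 tested peaks 4 were called higher. Here too the lowest paused sample lay above the highest control sample.

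The desert Bambi-Lyzl1 on chromosome 18 lies beside Bambi, which encodes a decoy receptor of BMP and activin signalling. Its summed value was 311, 293, 288 and 326 in the control samples and 491, 489, 492 and 511 in the paused samples, with both groups tight and far apart (log2 change 0.70 with SE 0.08, adjusted p = 6.44e-07 in limma-trend). The peak that rose most there, 324.7 kb from Bambi, had values of 31.5, 31.1, 20.3 and 32.3 in the control samples and 76.1, 83.6, 66.7 and 76.2 in the paused samples. The desert Ebf1-Clint1 lies beside Ebf1, a regulator of B cell fate, and its mean summed value went from 122 ± 13.5 to 198 ± 4.70 (mean and SD, n = 4; log2 change 0.70 with SE 0.11, adjusted p = 3.59e-05 in limma-trend). Only 1 of its 4 peaks was called, with values of 50.5, 44.2, 42.3 and 58.8 in the control samples and 86.5, 101, 99.3 and 114 in the paused samples. The desert Rbfox1-Tmem114, beside the neuronal splicing factor Rbfox1, went from 79.9 ± 17.7 to 130.3 ± 20.7 (mean and SD, n = 4; log2 change 0.71 with SE 0.15, adjusted p = 0.000797 in limma-trend). DESeq2 gave it an adjusted p of 0.0543.

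**Figure D4:**
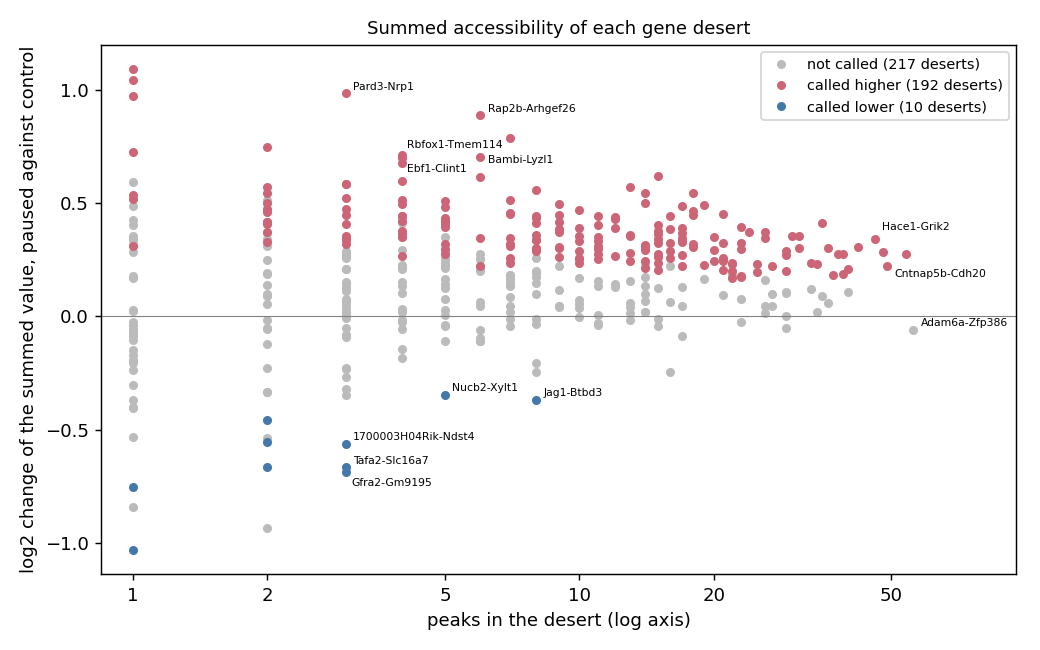
Each point is 1 of 419 tested deserts, by its number of peaks (log axis) and the log2 change of its summed value in paused against control cells. Red points are called higher (192) and blue points lower (10); named are some of the deserts described in the text, among them Pard3-Nrp1, the highest with at least 3 peaks, and Adam6a-Zfp386, with 56 peaks, near 0.

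Falls over a whole desert were few, and 5 of the 10 were in deserts of at least 3 peaks. The desert Jag1-Btbd3 (chr2:137416521-137956583) lies beside Jag1, which encodes a ligand of Notch receptors. Its summed value was 209.8, 197, 246 and 231 in the control samples and 162, 155, 196 and 172 in the paused samples. Each paused value lay below each control value, though the highest paused and the lowest control value were close (log2 change -0.37 with SE 0.10, adjusted p = 0.0098 in limma-trend). All 8 of its peaks had a negative change, and the 2 that were called lay side by side at 640.1 and 641.0 kb from Jag1. The second of the pair was nearer to Btbd3, at 499.0 kb. The first of the pair had values of 34.9, 37.0, 45.7 and 47.0 in the control samples and 19.6, 25.2, 27.9 and 23.4 in the paused samples (log2 change -0.75 with SE 0.21, adjusted p = 0.0116 in limma-trend).

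The desert Nucb2-Xylt1, between the gene of nucleobindin 2 and that of a xylosyltransferase, had a summed value of 213, 215, 244 and 241 in the control samples and 157, 179.8, 197 and 184 in the paused samples (log2 change -0.35 with SE 0.10, adjusted p = 0.0111 in limma-trend). This fall rested on its strongest peak, which held 49.0% of the sum and had values of 98.5, 115, 139 and 120.5 in the control samples and 66.9, 77.3, 86.9 and 94.9 in the paused samples. Without that peak the change was -0.17 (adjusted p = 0.308 in limma-trend). The 3 remaining falls were in deserts of 3 weak peaks each. The desert Gfra2-Gm9195, which holds the Gm35079 promoter printed above, went from 54.1 ± 7.08 to 33.2 ± 4.18, Tafa2-Slc16a7 from 53.9 ± 7.29 to 33.7 ± 5.49 and 1700003H04Rik-Ndst4 from 54.0 ± 10.3 to 35.8 ± 3.22 (SD, n = 4). Their log2 changes were -0.69, -0.67 and -0.56, with limma-trend adjusted p of 0.00516, 0.00721 and 0.0205. The call at 1700003H04Rik-Ndst4 was lost without control replicate 1, 3 or 4 or without paused replicate 3, at an adjusted p of 0.0538, 0.0633, 0.0662 and 0.0547 in limma-trend. When the log2 values of the peaks were averaged in place of summing them, the calls of Jag1-Btbd3, Nucb2-Xylt1, Gfra2-Gm9195 and 1700003H04Rik-Ndst4 were lost, at adjusted p of 0.0695, 0.0884, 0.0554 and 0.177 in limma-trend. Without its strongest peak, the adjusted p of 1700003H04Rik-Ndst4 was 0.0882 in limma-trend.

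**Figure D5:**
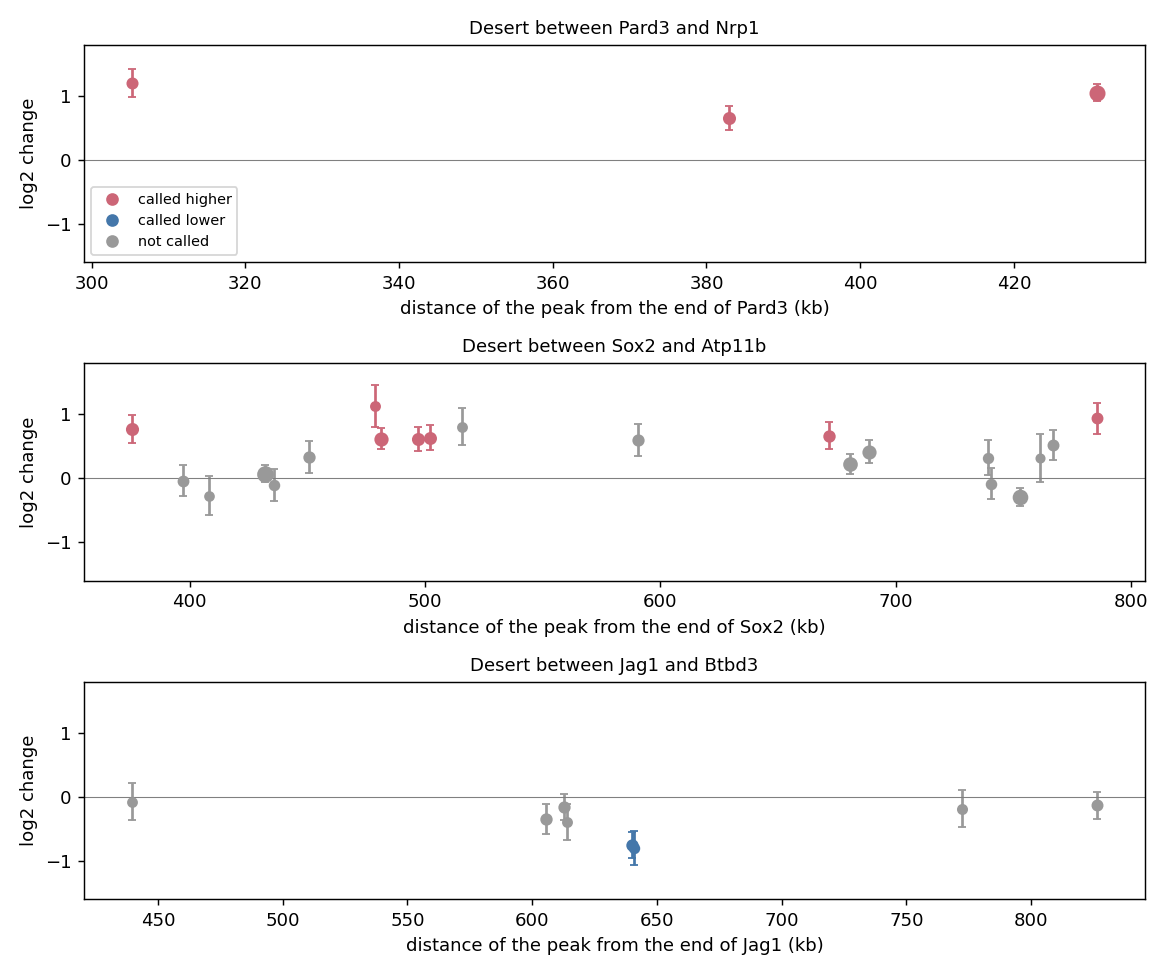
Log2 change of each tested peak (error bars: SE; point size grows with mean value) against its distance in kb from the gene on the left of 3 deserts. Red peaks are called higher, blue lower and grey not called; the 3 peaks of Pard3-Nrp1 are all called higher, 4 of the 7 rises in Sox2-Atp11b lie close together near 500 kb, and both falls in Jag1-Btbd3 are neighbours.

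Long deserts were among those with most called peaks. The desert Dsel-Cntnap5a (chr1:112165053-115384736), beside a gene of dermatan sulfate synthesis and a neurexin-like gene, held 11 peaks that rose among 37 tested. Peaks that fell are given where there were any. Its summed value was 1552, 1622, 1742 and 1710.5 in the control samples and 1976, 2074, 2064 and 2077 in the paused samples, and the groups stood apart (log2 change 0.31 with SE 0.04, adjusted p = 1.96e-05 in limma-trend). The desert Hace1-Grik2, between a ubiquitin ligase gene and that of a kainate receptor subunit, held 8 rises and 1 fall among 42 tested peaks. The desert Sall3-Galr1 on chromosome 18, beside the zinc finger gene Sall3, held 8 rises among 25, and its sum went from 1082 ± 30.3 to 1402 ± 22.2 (mean and SD, n = 4; log2 change 0.37 with SE 0.05, adjusted p = 6.26e-06 in limma-trend). Size alone did not go with calls in each case: Cntnap5b-Cdh20, with 38 tested peaks, held 3 rises and 2 falls. The summed value of Cntnap5b-Cdh20 was 1537, 1550.2, 1620.5 and 1827 in the control samples and 1815, 1959, 1831 and 2006 in the paused samples, the groups overlapped, and the call as deposited (log2 change 0.22 with SE 0.05, adjusted p = 0.00215 in limma-trend) was lost with TMM (adjusted p = 0.307), with the total (0.395), after loess (0.454), in edgeR with TMM (0.277) and in DESeq2 (0.459). The desert Pcdh7-G6pd2, with 5 rises and 1 fall among 37, went from 1393 ± 76.9 to 1700.3 ± 119 (mean and SD, n = 4; log2 change 0.29 with SE 0.05, adjusted p = 0.000249 in limma-trend), a call lost with the total (adjusted p = 0.0633), after loess (0.0801) and in DESeq2 (0.0967). With log2 values averaged over peaks, the calls of Hace1-Grik2, Cntnap5b-Cdh20 and Pcdh7-G6pd2 were lost as well, at adjusted p of 0.173, 0.786 and 0.319 in limma-trend.

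Antigen receptor loci met the rule, because their V segments are not annotated as protein-coding genes. Of 3 such deserts, the ones described here are Adam6a-Zfp386, with 86 V segments of the immunoglobulin heavy chain locus, and Gm36448-Dad1, with 96 of the T cell receptor alpha locus. V segments are the gene pieces joined by recombination in lymphocytes. Adam6a-Zfp386 was the desert with most peaks, 56 in all.

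The heavy chain desert (chr12:113846415-115747713) was not called as deposited. Of its 42 tested peaks 1 was called higher and 1 lower, and its summed value was 1316, 1437, 1548 and 1493 in the control samples and 1414, 1369, 1417 and 1348 in the paused samples (log2 change -0.06 with SE 0.05, adjusted p = 0.39 in limma-trend). The groups overlapped. With TMM the same desert was called lower, with a log2 change of -0.20 (limma-trend adjusted p = 0.0053), and likewise with the total (-0.22), after loess (-0.22), in edgeR with TMM (-0.20) and in DESeq2 (-0.20). The 1 peak that fell there (chr12:114148814-114149014) had values of 62.2, 56.1, 59.3 and 50.0 in the control samples and 43.8, 25.2, 27.9 and 34.0 in the paused samples (log2 change -0.81 with SE 0.19, adjusted p = 0.00285 in limma-trend). The T cell receptor desert held 2 rises and 1 fall of 25 tested peaks. Its sum was called higher as deposited, though its groups overlapped (log2 change 0.19 with SE 0.06, adjusted p = 0.0129 in limma-trend). Its change under the other scalings is not given here. With TMM the median log2 change of all stretches moved from 0.14 to -0.00341. Whether these loci differ from each other was not tested. Without the 3 deserts with V segments, 603 of 3574 tested desert peaks were higher and 75 lower.

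Deserts were also grouped by lists of genes beside them. Of the 61 deserts beside a developmental transcription factor gene, 22 (36.1%) were higher and 2 lower as sums, and 80 of their 507 tested peaks (15.8%) rose while 9 fell. Of 89 tested deserts beside a gene of neuronal adhesion, guidance or ion channels, 48 (53.9%) were higher and 2 lower, with 191 rises (17.3%) and 24 falls among 1101 peaks. The 16 deserts beside a signalling gene had 6 higher and 1 lower, with 20 rises (12.7%) and 10 falls (6.37%) among 157 peaks. The 255 tested deserts beside no listed gene had 117 higher (45.9%), with 333 rises (16.98%) among 1961 peaks. The median log2 change of peaks was 0.16, 0.22, 0.03 and 0.19 in these 4 groups, against 0.10 over all tested peaks. Over all stretches 25.4% were higher and 2.08% lower, and over all tested peaks 11% and 2.91%. Some deserts stand in 2 lists, and differences between the lists were not tested. The lists also differ in peaks per desert, and stretches with more peaks were called more often. The 61 deserts of transcription factor genes held 559 peaks, the 90 of neuronal genes 1294 and the 16 of signalling genes 175. The 260 deserts beside no listed gene held 2287. All counts in these lists are as deposited.

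Among deserts of transcription factor genes, that of Sox2, a core factor of pluripotency, and Atp11b (chr3:34952462-35454043) held 7 rises among 21 tested peaks. Its summed value was 776, 772, 660.4 and 726 in the control samples and 927, 949.5, 919 and 879 in the paused samples, and the groups stood apart (log2 change 0.33 with SE 0.06, adjusted p = 0.000379 in limma-trend). Of the rises, 4 followed one another within 23.3 kb, at 478.9 to 502.0 kb from Sox2. The strongest of the 4 had values of 51.5, 57.3, 35.6 and 45.5 in the control samples and 79.6, 72.5, 57.4 and 83.2 in the paused samples (log2 change 0.62 with SE 0.17, adjusted p = 0.0106 in limma-trend). The strongest peak of the desert, 432.2 kb from Sox2, did not pass the test, at 116, 117, 105 and 91.1 in the control samples and 107, 103, 135 and 107 in the paused samples (log2 change 0.07 with SE 0.13, adjusted p = 0.769 in limma-trend). The desert Pou3f2-Mms22l, beside the gene of the neural factor Pou3f2, held 6 rises among 20 tested peaks.

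Of the neuronal list, the deserts Pcdh20-Pcdh9 and Cdh6-Cdh9, between genes of protocadherins and of cadherins, held 8 rises among 37 tested peaks and 7 rises among 22. Their sums rose by 0.28 (adjusted p = 0.00112) and 0.40 (adjusted p = 4.43e-05) on the log2 scale in limma-trend. Of the signalling list, Slc10a2-Efnb2, beside the ephrin gene Efnb2, held 2 rises and 3 falls among 26 tested peaks and did not pass the test as a sum (log2 change -0.05 with SE 0.06, adjusted p = 0.551 in limma-trend). Zeb2-Acvr2a, beside the activin receptor gene Acvr2a, held 4 rises and 1 fall among 33, with a summed value of 1174, 1187, 1217 and 1269.7 in the control samples and 1186, 1287, 1341 and 1242 in the paused samples and overlapping groups (log2 change 0.06 with SE 0.05, adjusted p = 0.403 in limma-trend). Wac-Fzd8, beside the Wnt receptor gene Fzd8, held 4 rises and 2 falls among 12 tested peaks, and Nmbr-Cited2 3 rises and 1 fall among 32. The sums of both were called higher as deposited, without overlap of the groups. Their log2 changes were 0.27 (SE 0.08, adjusted p = 0.0146) and 0.18 (SE 0.05, adjusted p = 0.00705) in limma-trend. Their calls under other scalings are not given here.

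Of 36 genes beside the named deserts, 25 had a tested peak within 1 kb of an end, and 0 of these peaks were called in limma-trend, edgeR or DESeq2. Among all tested peaks limma-trend called 13.9%, and among those within 1 kb of a gene end and outside genes 12.02%, against which a count over 25 peaks says little. At an unadjusted p under 0.05, limma-trend gave 3 higher and 0 lower. The median log2 change of the 25 peaks was 0.16, with 22 positive, but 13 were positive after scaling to the total and 7 after loess. The peak at Pard3 went from 332 ± 81.4 to 389.9 ± 33.6 and that at Nrp1 from 88.6 ± 23.7 to 87.0 ± 18.2 (SD, n = 4), with log2 changes of 0.26 and -0.02 and limma-trend adjusted p of 0.147 and 0.962. The peak at Jag1 went from 233 ± 33.6 to 246 ± 33.7 (log2 change 0.08, limma-trend adjusted p = 0.712).

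Non-coding genes were near a small part of the desert peaks. Within 1 kb of an end of any non-coding gene lay 250 of the 4274 members, and of the 217 tested among them 18 (8.29%) were higher and 4 (1.84%) lower, below the shares of 16.8% and 2.11% in desert peaks and of 11% and 2.91% in all peaks. For long non-coding RNA genes the numbers were 105 peaks, 101 tested, 12 higher (11.9%) and 4 lower (3.96%). Whether these shares differ was not tested. The 4 peaks within 1 kb of a miRNA gene had a median log2 change of 0.16. The called peaks with the largest changes were at Gm35079 (log2 change -1.16), 4933409F18Rik (-0.99), Gm29854 (0.94), the pseudogene Gm9729 (0.90) and Gm31129 (0.89). At 4933409F18Rik the values were 28.4, 26.3, 20.3 and 35.3 in the control samples and 15.0, 14.2, 10.9 and 12.9 in the paused samples, without overlap. Of the 427 tested desert peaks inside the span of a long non-coding RNA gene 13.8% were higher, and of the 3261 outside such spans 17.2%.

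Some called peaks lay close to each other. Of the 619 rises, 128 lay in 58 runs of neighbouring rises at most 20 kb apart, 9 of which held at least 3 peaks. No such count over all peaks is given here, so that these runs are a description only. The longest runs held 4 peaks each, in Sox2-Atp11b, Bambi-Lyzl1 and 1810013L24Rik-Grin2a. As a description across pairs of neighbouring desert peaks, which share their libraries and depth, Pearson's r between the changes of both peaks was 0.23 for the 356 pairs under 5 kb apart and 0.19 for the 735 pairs at 5 to 20 kb. It was 0.11 at 20 to 100 kb (1346 pairs) and 0.01 beyond (834 pairs). Where both neighbours under 5 kb apart were called, 17 pairs rose together, 1 fell together and 3 moved in opposite directions. At 5 to 20 kb, 36 pairs rose together, 2 fell together and 0 moved in opposite directions. The numbers were 36, 2 and 8 at 20 to 100 kb and 16, 0 and 1 beyond. Since 88.8% of all called desert peaks were rises, most called pairs would rise together without any link between neighbours. Whether the pairs exceed that share was not tested.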

How the data were processed

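The table of 134407 peaks, each 201 bp wide, covers 8 ATAC-seq libraries of 50000 live cells each. The authors deposited, for each sample, a signal that equals whole reads over a factor of that sample. This was worked out from the values: 99.8% to 100% of them per sample are whole multiples of 1 step (tolerance 0.0051 in the value). The factors' making is not given in the sources used here. The authors also deposited log2 means and a log2 fold, per the file headers, with p-values and FDR of their own comparison; these columns are not used for calls here, and the authors' deposited table gives 14771 peaks an FDR under 0.05. Bowtie2 2.4.1, MACS3 3.0.3, DiffBind 3.16.0, Trim Galore, FastQC and build mm10 are named in the submitters' processing notes, with no role; read filters and the treatment of the Tn5 offset are not given. No per-sample column (0) was left out.

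Groups and replicate numbers came from the sample titles. Genes came from the RefSeq table of GRCm38.p6, with 20661 protein-coding genes on chromosomes 1 to 19; it gives spans without exons. The fit was limma-trend (limma 3.58.1, R 4.3.3) on log2(value + 1), with no covariate, over the 127402 peaks whose mean value reached 10, and likewise over 26207 summed stretches. Fold changes on this scale understate the change of weak peaks. Single values were compared with exact two-sided permutation tests over 70 arrangements. Alternatives were the pseudocount, the filter, TMM, the total in peaks, loess on strength (span 0.3), edgeR 4.0.16 and DESeq2 1.42.0 on the recovered reads, other distances, a replicate block, other summaries of a desert and each sample left out. On recovered reads, edgeR called 16142 of all peaks with TMM and 21046 with the deposited factors. A peak with 0 reads allows a value of up to 1.04 in control replicate 1 and 5.08 in control replicate 3 (3 reads, counting error only).

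Named were the 8 largest rises and falls among called desert peaks of at least median strength (28.6) without overlap, the 6 largest rises and falls among called deserts of at least 3 peaks (5 falls qualified), the 4 deserts with most called peaks and with most peaks, the 3 strongest peaks, the flanking genes of named deserts, 4 deserts per gene list and the 5 largest changes near non-coding genes. Some deserts that this rule names are not reported here. The members and lists were chosen with earlier results of these data known. On simulated data with 200 of 127402 peaks changed, limma-trend recovered 30 of 100 at a log2 change of 1 and 69 of 100 at 1.5, with 1 false call. In the data 17660 peaks were called, for which the Benjamini-Hochberg adjustment is less strict. The simulation also gave each peak the same spread between samples beyond counting, a fixed setting not estimated from these libraries. The recovery and the false calls in the simulation are therefore not those of the calls made here. Sequences of the peaks themselves were not used here.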

Additional observations from a re-analysis of the deposited data

Results flagged for a closer look

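In 7 of 78 groups of 4 samples examined, 1 sample stood apart from the other 3; chance flags about 1 in 20 such groups. Control replicate 3, the library with the fewest reads, was low at the most changed peak of the desert Bambi-Lyzl1 (20.3, others 31.05 to 32.3) and in the sum of Ebf1-Clint1 (101.6, others 126.6 to 129.6). Paused replicate 1 was low in the sums of Pard3-Nrp1 (193.8, others 226.1 to 231.9), Dsel-Cntnap5a (1976, others 2064 to 2077) and Pcdh7-G6pd2 (1523, others 1749 to 1768). Paused replicate 4 was high in the sum of Bambi-Lyzl1 (510.8, others 489 to 491.9), and paused replicate 3 was low in that of 1700003H04Rik-Ndst4 (31.0, others 36.9 to 37.9). In Pard3-Nrp1, Dsel-Cntnap5a, Pcdh7-G6pd2, Ebf1-Clint1 and at both Bambi-Lyzl1 values the sample that stood apart stayed on its own group's side. At 1700003H04Rik-Ndst4 the call was lost without paused replicate 3, as given above.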

How the results depend on the processing

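Counts of desert peaks called moved with the scaling: 373 higher with TMM, 438 (296 higher, 142 lower) with the total in peaks, 462 (363 higher) after loess, 133 lower in edgeR with TMM and 239 (202 higher, 37 lower) in DESeq2. Deserts called were 86 (68 higher, 18 lower) with TMM, 84 (61, 23) with the total, 76 (60, 16) after loess, 98 (79, 19) in edgeR with TMM, 65 (53 higher) in DESeq2 and 56 (53, 3) with averaged log2 values. With a distance of 200 kb, 1121 of 5826 peaks were called (974 higher, 147 lower); with 500 kb, 340 of 1869 peaks (309, 31) and 101 of 214 deserts (96, 5). The difference in share was 0.178 percentage points (exact permutation p = 0.0286) over peaks more than 1 kb from a gene end only. The difference at equal strength was 0.14 with the replicate block, where the exact p of 0.125 is the smallest of 16 arrangements, and 0.0131 against peaks 100 to 300 kb from a gene.

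Leaving out each sample in turn gave 474 to 631 desert peaks called (424 to 567 higher, 38 to 86 lower), 165 to 213 deserts (155 to 206 higher, 7 to 13 lower), a difference in share of 0.0848 to 0.139 and one at equal strength of 0.11 to 0.16. The strongest desert peak turned to -0.00833 after loess. Of 342 values of named peaks under alternatives 338 kept direction and side of the threshold, and of 324 values of named deserts 294. Whether replicate numbers pair the samples was not settled, and the main fit did not pair them. Correlations of same-numbered samples were 0.04 to 0.13, and those of other pairs -0.105 to 0.07. Control replicates 1, 3 and 4 were closest to the paused sample of their own number, and control replicate 2 to paused replicate 1. With the replicate block 817 desert peaks and 220 deserts were called. The factors decide how many rises are counted, and their making is not given. The median tested desert peak held 16 to 75 reads per sample. In the simulation over all peaks, with a fixed spread and far fewer changed peaks than were called in the data, 30 of 100 changes of 2-fold were recovered. The loess correction of the difference at equal strength, the comparison at 100 to 300 kb and the omission of antigen receptor deserts were chosen after seeing the data.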
